A study of Mus musculus with 19 samples.

Results

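The 10 genes described here carry cholesterol out of liver cells or turn it into conjugated bile acids. They are the sterol transporters Abca1, Abcg1, Abcg5 and Abcg8, the cytochrome P450 enzymes Cyp7a1, Cyp8b1, Cyp27a1 and Cyp7b1, and the conjugating enzymes Slc27a5 and Baat. They were chosen by symbol from the 55836 genes of a count table of mouse liver, and all 10 passed the filter on low counts, which kept 13597 genes. Feeding a diet rich in fat, fructose and cholesterol raised 3 of the 4 transporters in vehicle-treated mice, by 1.14 to 1.54 on the log2 scale, and all 4 in mice given polyethylene particles. None of the 6 bile acid enzymes was called different in any comparison of diet or particles, where 1.08% to 10.4% of all genes tested were called. Cyp27a1 was lower with particles on the rich diet at an adjusted p below 0.05, but by less than the size required for a call.

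A liver cell disposes of cholesterol by several routes. Abcg5 and Abcg8 work together as a heterodimer that secretes sterols into bile, whereas Abca1 and Abcg1 serve the passage of cholesterol to high-density lipoprotein in blood. Cholesterol is also converted to bile acids, either by the classic pathway that Cyp7a1 opens or by the acidic pathway that Cyp27a1 and Cyp7b1 serve. Slc27a5 and Baat then attach the product to taurine or glycine. The oxysterol receptor LXR is known to raise the 4 transporters in mice, and the bile acid receptor FXR, encoded by Nr1h4, is known to repress Cyp7a1 through the corepressor encoded by Nr0b2.

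Livers came from wild-type male C57BL/6 mice, 8 weeks old when obtained and treated for 8 weeks. The control diet (CD), named chow in the labels, had 10% of energy as fat with matching sucrose, and the MASH diet (MD) had 40% of energy as fat, 20% as fructose, and 2% cholesterol. Mice received polyethylene microplastic particles (PE) at 2 mg a day by gavage or the Tween 20 vehicle (Veh). There were 4 mice in CD + Veh and 5 in each of the groups CD + PE, MD + Veh and MD + PE, with 1 library of poly(A) RNA for each mouse and 1 batch name in the labels. Mice of a group shared housing, so that cage and group cannot be told apart.

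Libraries held 10398820 to 15456729 counts, and every PE library was shallower than every vehicle library. Vehicle libraries also carry lower library numbers than PE libraries, so that the numbering cannot be told apart from PE. Values are CPM, the counts of a gene for each 1000000 counts of its library, scaled by the trimmed mean of M values (TMM), and the counts of the 10 genes ran from 41 for Abcg1 to 11909 for Slc27a5. A gene was called where the adjusted p of edgeR's quasi-likelihood test was below 0.05 and the log2 fold change was at least 0.38 in size. In 4 libraries, markers of another cell type stood over 1.5 times above every other library, namely macrophage markers in CD + PE replicate 2, lipid-associated macrophage markers in MD + PE replicate 4, bile duct markers in MD + PE replicate 2, and adipocyte and skeletal muscle markers in MD + Veh replicate 1. Without these 4 libraries the counts of members called were the same in all 5 comparisons. The summed hepatocyte markers Alb, Ttr, Apoa1, Serpina1c and Tat ran from 62141 to 89820 CPM on CD and from 44731 to 61538 CPM on MD.

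In the GRCm39 assembly the genes lie apart on 6 chromosomes, except for 1 divergent pair. Abcg5 (chr17:84964851-84990494, minus strand) and Abcg8 (chr17:84983730-85007765, plus strand) are read away from each other, with 12 bases between their canonical starts and 358 bases between their start codons. The annotated genes overlap, because an alternative Abcg8 transcript starts inside Abcg5. The libraries are described as stranded, and per the paper Salmon was left to detect the library type by itself. The type it found is not given in the sources used here, and some counts of this pair may be shared. The others are Abcg1 (chr17:31276649-31336969, plus), Abca1 (chr4:53030787-53159900, minus), Cyp7a1 (chr4:6265612-6275633, minus), Baat (chr4:49489289-49506563, minus), Cyp27a1 (chr1:74752314-74777056, plus), Cyp7b1 (chr3:18117411-18297740, minus), Slc27a5 (chr7:12722273-12732137, minus) and Cyp8b1 (chr9:121743422-121745371, minus), the last with 1 exon.

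The bases just upstream of a start are shown for the transporters that differed in how firmly they answered the diet (Abcg1 and Abca1) and for an enzyme of each bile acid route that the comparisons below turn on (Cyp8b1 and Cyp27a1). Capitals mark matches, on either strand, to the nuclear receptor motif AGTTCA, the E-box CACGTG or the TATA motif TATAAA, and bases in annotated exons were left out. Each runs 5′ to 3′ on the strand of its gene.
Abcg1, chr17:31276411-31276648, plus strand: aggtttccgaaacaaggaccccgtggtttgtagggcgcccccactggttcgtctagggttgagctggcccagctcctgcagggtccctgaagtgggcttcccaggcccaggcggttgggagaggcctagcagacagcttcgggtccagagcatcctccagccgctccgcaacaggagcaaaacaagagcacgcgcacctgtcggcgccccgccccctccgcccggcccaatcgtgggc
Abca1, chr4:53159901-53160150, minus strand: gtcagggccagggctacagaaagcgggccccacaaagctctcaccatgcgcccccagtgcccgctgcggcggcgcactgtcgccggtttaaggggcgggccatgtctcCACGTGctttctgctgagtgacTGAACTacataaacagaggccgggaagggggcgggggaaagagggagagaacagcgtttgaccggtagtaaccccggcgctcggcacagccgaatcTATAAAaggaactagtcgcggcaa
Cyp8b1, chr9:121745372-121745621, minus strand: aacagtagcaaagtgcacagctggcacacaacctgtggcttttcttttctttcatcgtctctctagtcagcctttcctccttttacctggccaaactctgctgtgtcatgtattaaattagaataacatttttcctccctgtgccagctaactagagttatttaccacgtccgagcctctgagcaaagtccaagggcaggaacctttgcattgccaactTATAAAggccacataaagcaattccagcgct
Cyp27a1, chr1:74752095-74752313, plus strand: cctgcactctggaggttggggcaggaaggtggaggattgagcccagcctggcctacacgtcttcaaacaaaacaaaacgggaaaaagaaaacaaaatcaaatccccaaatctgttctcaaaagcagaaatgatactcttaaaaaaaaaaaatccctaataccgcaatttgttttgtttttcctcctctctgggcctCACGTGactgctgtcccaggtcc
Over all 10 members the 250 bases upstream of the canonical start were searched, and 6 motifs were tried. This search kept bases in annotated exons, and the windows of Abcg5 and Abcg8 overlap exons of this pair. TATAAA was found in 4 of 10 windows, among them those of Abca1, Abcg5 and Cyp8b1, against 7.49% of 12330 windows of tested genes. The GATA motif AGATAA was found in 5 of 10 (Abcg5, Abcg8, Baat and Slc27a5 among them) against 7.26%, and AGTTCA in 3 of 10 (Abca1 and Abcg8 among them) against 10.4%. The E-box was in 3 of 10 (Abca1, Cyp27a1 and Slc27a5) against 7.75%, the receptor motif AGGTCA in 1 of 10 (Cyp7b1) against 11.8%, and the D-box TTATGNAA in none against 2.3%. A match in so short a window is a description and not a binding site.

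Per kilobase of canonical transcript, Slc27a5, Cyp27a1, Cyp8b1 and Baat stood above the 4 transporters, whereas Cyp7a1 and Cyp7b1 did not. In CD + Veh, Slc27a5 had the highest level at 307 ± 24.9 CPM per kilobase (SD, n = 4), followed by Cyp27a1 at 162 ± 13.9, Cyp8b1 at 103 ± 11.3 and Baat at 75.2 ± 11.0 CPM per kilobase. The libraries of each of these 4 genes lay apart from those of its neighbour in the order. Abcg8 at 26.7 ± 4.36, Abcg5 at 25.9 ± 3.66, Cyp7a1 at 19.4 ± 8.58 and Abca1 at 17.6 ± 2.13 CPM per kilobase overlapped with their neighbours. Cyp7b1 was lower at 8.61 ± 4.25 and Abcg1 lowest at 1.30 ± 0.179 CPM per kilobase. In MD + Veh, Abcg5 reached 75.4 ± 8.30 and Abcg8 60.7 ± 6.30 CPM per kilobase (SD, n = 5), and the libraries of Abcg5 then overlapped with those of Baat at 87.6 ± 10.1.

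**Figure D1:**
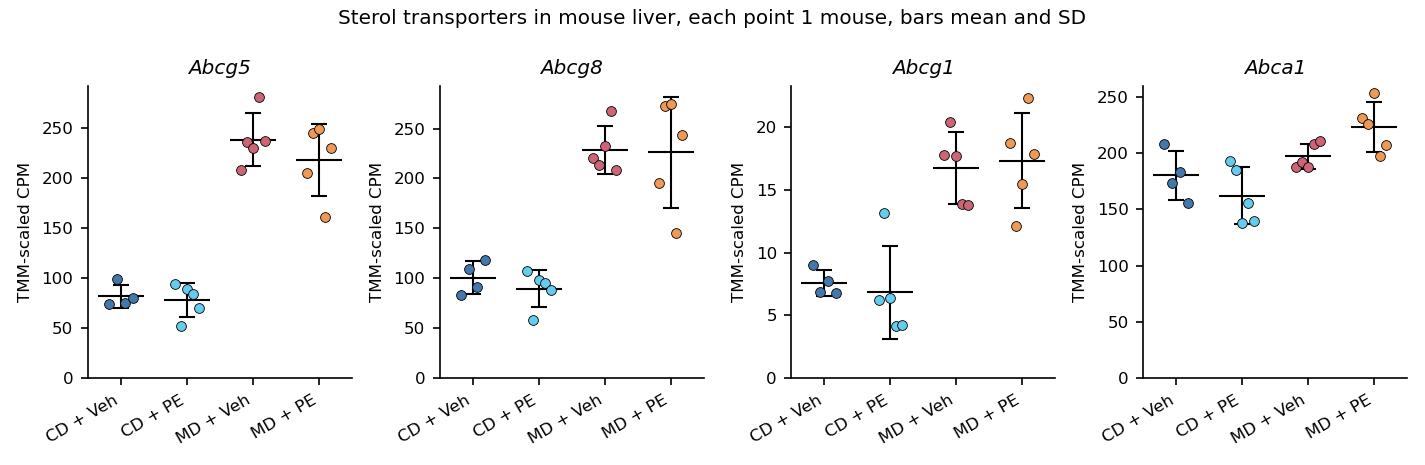
TMM-scaled CPM (vertical axes, from 0) of Abcg5, Abcg8, Abcg1 and Abca1 in each library, by group along the horizontal axes, with lines for the mean and bars for the SD. All MD libraries lie above all CD libraries for Abcg5 (at least 161 against at most 98.6) and Abcg8 (at least 145 against at most 118).

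Whether the diet changed sterol export genes was asked first in vehicle-treated mice, where 1410 of 13597 genes (10.4%) were called and 3 of the 10 members were among them, all higher on MD. Abcg5 stood at 73.6, 74.7, 80.4 and 98.6 CPM in CD + Veh and at 208, 230.3, 236, 237 and 281 CPM in MD + Veh. The groups did not overlap, and the level rose 2.91-fold (log2 fold change 1.54, SE 0.159, adjusted p = 2.88e-06). Its partner Abcg8 stood at 82.8, 91.0, 109.6 and 118 CPM in CD + Veh and at 208, 214, 220.4, 232 and 268 CPM in MD + Veh. Here too every MD library was above every CD library, with a rise of 2.27-fold (log2 fold change 1.19, SE 0.181, adjusted p = 0.000232). In bulk liver, fewer cells of a type and less RNA in each cell cannot be told apart, and this holds for each level given here.

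With PE in both diets, 627 genes (4.61%) were called between MD + PE and CD + PE, among them 4 of the 10 members, again all higher on MD. Abcg5 was 51.7, 70.0, 83.9, 89.1 and 93.6 CPM in CD + PE and 161, 205, 230.0, 245 and 249 CPM in MD + PE (log2 fold change 1.49, SE 0.147, adjusted p = 2.04e-06). Abcg8 was 58.2, 88.4, 95, 98.3 and 107 CPM in CD + PE and 145, 195, 244, 272 and 275 CPM in MD + PE (log2 fold change 1.34, SE 0.170, adjusted p = 4.58e-05). Neither gene overlapped between the diets. The lowest MD + PE value of both was in replicate 4, and the lowest CD + PE value of both was in replicate 2, and these libraries hold the highest lipid-associated macrophage and Kupffer cell markers, in that order. The part of these cells in the low values was not tested.

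Abcg5 and Abcg8 are also intestinal genes, and the intestinal markers were therefore examined. Cdx1 and Cdx2, the defining transcription factors of intestinal epithelium, were at 0 in 18 of 19 libraries, the exception being MD + PE replicate 2, where Cdx2 was at 2.02, Sis at 20.9 and Vil1 at 22.7 CPM. Of the 6 intestinal markers only Fabp2, which liver expresses as well, passed the filter. It was called higher on MD under vehicle and under PE (log2 fold changes 1.08 and 0.72). The summed level of the list ran from 42.8 to 77.6 CPM on CD and from 98.4 to 165 CPM on MD. Without MD + PE replicate 2 or any other single library, the log2 fold change between the diets was 1.37 to 1.59 for Abcg5 under PE and 1.48 to 1.64 under vehicle.

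Abcg1 was the least abundant member, and its diet response was as large as that of Abcg8 but less even. It was 6.74, 6.88, 7.72 and 9.02 CPM in CD + Veh and 13.8, 13.9, 17.7, 17.8 and 20.4 CPM in MD + Veh, without overlap (log2 fold change 1.14, SE 0.257, adjusted p = 0.00533). In CD + PE it was 4.12, 4.25, 6.23, 6.36 and 13.2 CPM, and in MD + PE 12.1, 15.5, 17.9, 18.8 and 22.3 CPM, where the groups overlapped through replicate 2 of each (log2 fold change 1.34, SE 0.246, adjusted p = 0.00208). Abcg1 is also expressed by macrophages. The 6 macrophage markers, none of them called in any comparison, summed to 93.1 to 164 CPM in CD + Veh, 193 to 285 CPM in MD + Veh, 78.4 to 112 CPM in 4 CD + PE libraries and 443 CPM in CD + PE replicate 2, and 158 to 282 CPM in MD + PE. Their part in the level of Abcg1 was not tested.

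The diet call of Abcg1 under vehicle was lost when a clock score was added as a covariate. That fit called 390 of all genes for this comparison, against 1410 without the score. This score is the mean log2 CPM of Bmal1, Clock and Npas2 minus that of 7 genes of the opposite phase, and it ran from -4.97 to -3.78 in CD + Veh and from -2.55 to -0.00416 in MD + Veh, without overlap. With it, Abcg1 was 0.21 higher in MD + Veh on the log2 scale (adjusted p = 0.727), whereas Abcg5 at 1.86 (adjusted p = 0.000122) and Abcg8 at 1.61 (adjusted p = 0.0015) remained called. Under PE, where the scores of the diets overlapped (-3.32 to 0.585 on CD and -2.20 to -0.207 on MD), Abcg1 remained called at 1.25 (adjusted p = 0.000106). The highest score, 0.585, was in CD + PE replicate 2, which also held the highest Abcg1 level on CD. Its part in the fits with this score was not tested.

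Abca1 behaved differently from the ABCG transporters under vehicle. It was 156, 174, 183 and 208 CPM in CD + Veh and 188, 188, 192, 208 and 211 CPM in MD + Veh, overlapping values with a log2 fold change of 0.13 (95% interval -0.09 to 0.35, adjusted p = 0.451). In CD + PE it was 138, 139.6, 156, 185 and 193 CPM and in MD + PE 198, 207, 226, 232 and 254 CPM, where it did not overlap and rose 1.38-fold (log2 fold change 0.46, SE 0.10, adjusted p = 0.00793). The difference between these diet responses was 0.33 (SE 0.145, unadjusted p = 0.0348), which did not pass the adjustment (adjusted p = 0.533). Of all genes, 1 (0.00735%) was called for the interaction of PE and diet and no member was, by edgeR or by DESeq2. At an unadjusted p below 0.05 in edgeR, 2 of the 10 members differed, Abca1 and Cyp8b1, beside 1193 of 13597 genes.

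Particles left the transporters without a call in either diet. Between CD + PE and CD + Veh, 397 genes (2.92%) were called and no member by edgeR or DESeq2. At an unadjusted p below 0.05 in edgeR there were 1 member and 2377 of 13597 genes. Between MD + PE and MD + Veh, 147 genes (1.08%) were called and again no member by either tool. At the same unadjusted limit there were 2 members and 2132 of 13597 genes. The 95% intervals bounded the PE effect on Abcg5 to between -0.40 and 0.25 on CD and between -0.43 and 0.17 on MD, on the log2 scale. For Abcg8 they were -0.54 to 0.20 and -0.36 to 0.33. Abcg1 had the widest intervals of the transporters, -0.70 to 0.40 on CD and -0.43 to 0.53 on MD, and without CD + PE replicate 2 it was 0.53 lower in CD + PE (adjusted p = 0.152). With the clock score as a covariate it was 0.92 lower in CD + PE and called (adjusted p = 0.0466). The scores of these groups did not overlap (-4.97 to -3.78 in CD + Veh and -3.32 to 0.585 in CD + PE). The highest was in CD + PE replicate 2, whose part in this call was not tested. Each group of libraries enters a PE comparison and a diet comparison, so the values of those comparisons are not independent.

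**Figure D2:**
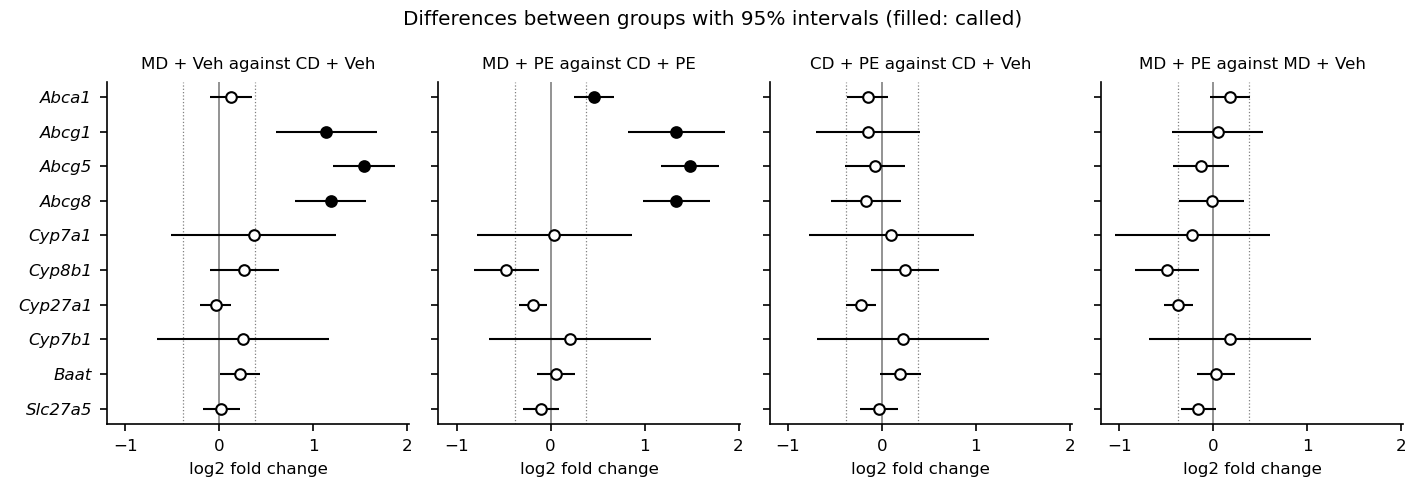
Log2 fold changes (points) and 95% intervals (lines) of the 10 genes in the diet comparisons (left) and the PE comparisons (right), with dotted lines at the minimum size of 0.38 and filled points for called genes. The 7 filled points are all transporters in the diet panels, and the intervals of Cyp7a1 and Cyp7b1 are the widest.

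The enzymes of the classic pathway were not called in any comparison. Cyp7a1, the rate-limiting enzyme, was 50.4, 52.4, 97.8 and 124 CPM in CD + Veh and 45.4, 80.7, 117, 118 and 161 CPM in MD + Veh. In CD + PE it was 50.6, 53.9, 77.8, 125 and 127 CPM, and in MD + PE 36.6, 71.5, 71.8, 87.8 and 179.8 CPM. All 4 groups overlapped, with coefficients of variation of 41.6% to 60.1%. The 95% interval for the diet under vehicle was -0.51 to 1.24 on the log2 scale and that for PE on MD -1.05 to 0.60. Changes of any size within these bounds remain possible.

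Cyp8b1, the sterol 12-alpha-hydroxylase that sets the share of cholic acid, had a PE effect of opposite sign in the diets. It was 177, 191, 211 and 227 CPM in CD + Veh and 191, 214, 219, 282 and 287 CPM in CD + PE, and the log2 fold change was 0.25 (SE 0.175, adjusted p = 0.513). On MD it was 157, 238, 257, 259 and 299.9 CPM with vehicle and 129, 143, 170.5, 198 and 221 CPM with PE, a log2 fold change of -0.49 (SE 0.165, unadjusted p = 0.00761, adjusted p = 0.141). The groups overlapped in both diets, through MD + Veh replicate 1 in the second. The test of the difference itself gave -0.74 (SE 0.240, unadjusted p = 0.0063), which did not pass the adjustment over all genes (adjusted p = 0.329).

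**Figure D3:**
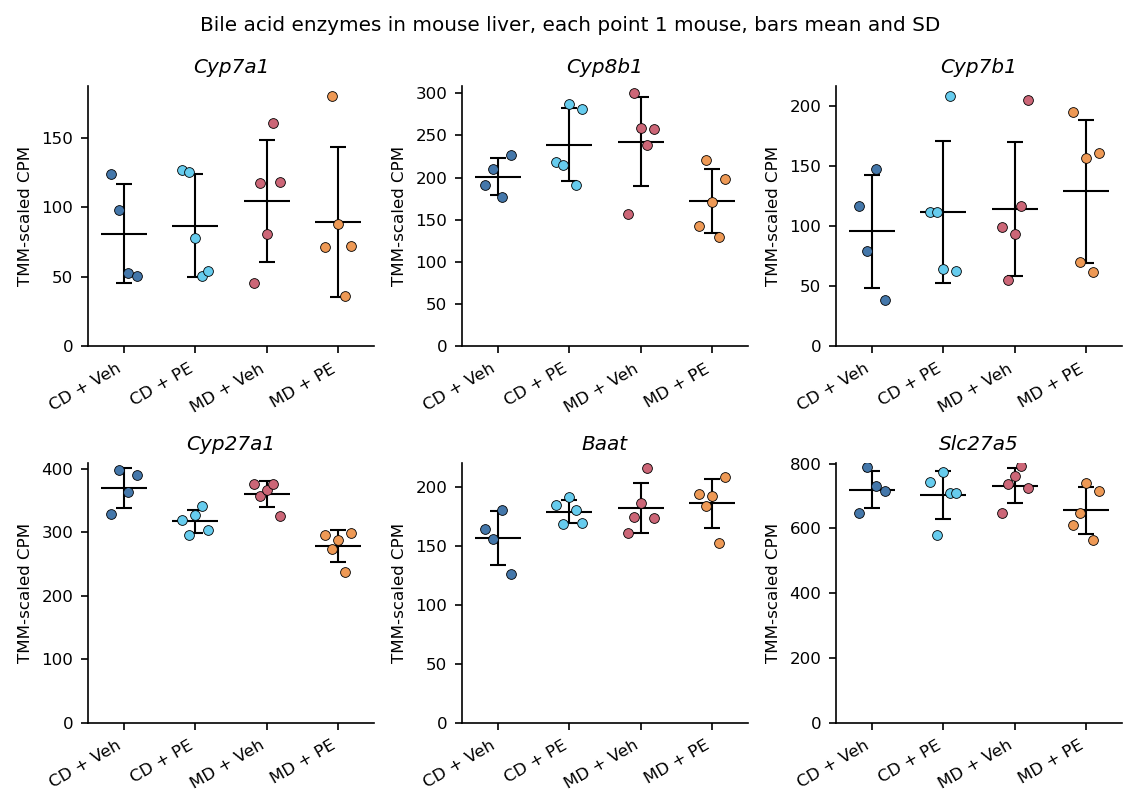
TMM-scaled CPM (vertical axes, from 0) of the 6 bile acid enzymes in each library, by group along the horizontal axes, with lines for the mean and bars for the SD. The points of Cyp7a1 and Cyp7b1 spread over several-fold within each group, whereas those of Cyp27a1 are tight and those of MD + PE (at most 298) lie below those of MD + Veh (at least 326).

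Cyp27a1, the mitochondrial sterol 27-hydroxylase of the acidic pathway, was the member closest to a PE call. It was 326, 357, 367, 376 and 376 CPM in MD + Veh and 238, 274, 288, 295 and 298 CPM in MD + PE. The groups did not overlap, and the difference passed the test (log2 fold change -0.37, SE 0.0724, adjusted p = 0.014) but not the minimum size of 0.38. On CD it was 328, 364, 389.8 and 399 CPM with vehicle and 296, 304, 319.6, 327 and 341 CPM with PE, which overlapped (log2 fold change -0.22, SE 0.0765, adjusted p = 0.118). Over the alternative fits the change on CD ran from -0.26 to -0.16, with adjusted p from 0.0419 to 0.683, and was never called. Cyp27a1 was called on MD after thinning to equal depth (-0.38, adjusted p = 0.0119) and when MD + Veh replicate 5 or MD + PE replicate 1, 3 or 5 was left out, where it ran from -0.40 to -0.38 (adjusted p = 0.011 to 0.0365). On MD the test was not passed without the 4 libraries that stood apart (-0.28, adjusted p = 0.188), in a fit of the MD groups alone (-0.35, adjusted p = 0.0685) or with the library-number division as a covariate (-0.33, adjusted p = 0.221).

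Cyp7b1, the oxysterol 7-alpha-hydroxylase, spread as widely as Cyp7a1. It was 38.5, 79.6, 116 and 148 CPM in CD + Veh, 62.9, 64.6, 112, 112 and 208 CPM in CD + PE, 55.1, 93.8, 99.1, 117 and 205 CPM in MD + Veh, and 61.9, 70.6, 157, 161 and 195 CPM in MD + PE. All groups overlapped, and the log2 fold changes lay between 0.18 and 0.25 with SE of 0.411 to 0.439.

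The conjugating enzymes were not called in any comparison. Slc27a5, which activates bile acids to their CoA esters, averaged 720.1 ± 58.5 CPM in CD + Veh (SD, n = 4) and 704 ± 73.6 CPM with PE on the same diet, then 732 ± 54.4 CPM in MD + Veh and 655 ± 72.5 CPM with PE (n = 5 each). Its log2 fold changes ran from -0.16 to 0.02, and the 95% interval for the diet under vehicle was -0.18 to 0.22. Baat, which joins the activated acid to taurine or glycine, had means of 156 ± 22.8, 179 ± 9.95, 182 ± 21.0 and 186 ± 20.7 CPM in the same order. It was nominally higher in MD + Veh than in CD + Veh (log2 fold change 0.22, unadjusted p = 0.0466, adjusted p = 0.168).

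Ratios within a library, which remove what the genes share in a library, were compared next in 12 exact two-sided permutation tests. Abcg5 relative to Abcg8 had a mean log2 ratio of -0.29 ± 0.187 in CD + Veh (SD, n = 4) and -0.20 ± 0.0758 with PE on the same diet, against 0.06 ± 0.108 in MD + Veh and -0.03 ± 0.135 with PE (n = 5 each). In CD + Veh the values were -0.56, -0.28, -0.17 and -0.15, and in MD + Veh they were -0.08, -0.01, 0.07, 0.14 and 0.18, without overlap. The exact p of 0.0159 for either diet comparison became 0.0952 over the 12 tests, so the change of Abcg5 relative to its partner did not pass. The smallest p that these tests allow is 0.0159 for 4 against 5 libraries and 0.00794 for 5 against 5. Full separation in 1 of the 12 tests alone therefore cannot pass the adjustment. Cyp7a1 relative to Cyp7b1 and relative to Cyp8b1 did not differ between groups beyond their spread, with adjusted p of 0.883 to 0.921 in exact permutation tests over 8 comparisons.

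**Figure D4:**
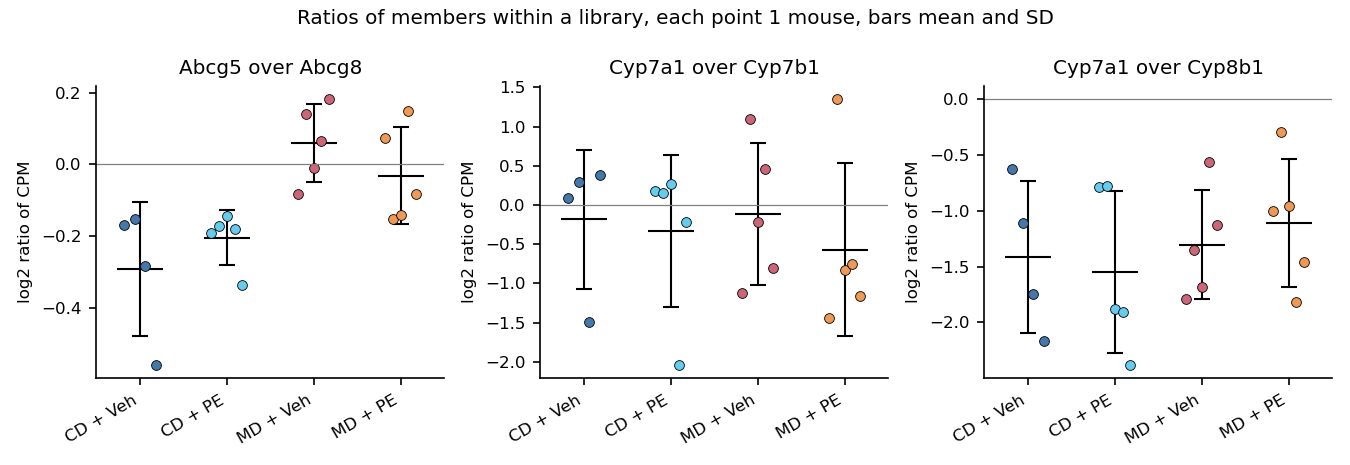
Log2 ratios of CPM within each library (vertical axes) for Abcg5 over Abcg8, Cyp7a1 over Cyp7b1 and Cyp7a1 over Cyp8b1, by group along the horizontal axes, with lines for the mean and bars for the SD. The first ratio stays between -0.56 and 0.18, while Cyp7a1 over Cyp7b1 runs from -2.04 to 1.35.

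How the members varied together was measured over the 19 libraries after group means were removed, in 45 pairs, with 100000 permutations within groups. Abcg5 and Abcg8 varied together most closely (Pearson r = 0.90, permutation p = 3e-05, adjusted 0.000675, and Spearman rho = 0.81, permutation p = 0.00011, adjusted 0.00495). Without CD + PE replicate 2 and MD + PE replicate 4, the most extreme libraries in Abcg5, r was 0.79. Abcg5 and Slc27a5 were also related (r = 0.88, permutation p = 2e-05, adjusted 0.000675, and rho = 0.78, permutation p = 0.00031, adjusted 0.00697), with r = 0.77 without the same libraries. In these 2 pairs both measures passed the adjustment. In 5 further pairs only r passed, among them Abca1 with Cyp7a1 (r = 0.64, permutation p = 0.00614, adjusted 0.0461, and rho = 0.66, permutation p = 0.00609, adjusted 0.0685) and Abcg1 with Abcg8 (r = -0.72, permutation p = 0.00308, adjusted 0.0277, and rho = -0.62, permutation p = 0.00783, adjusted 0.0705). With the most extreme 2 libraries in the first gene left out, r was 0.57 and -0.61 in these pairs. Cyp7a1 and Cyp7b1 had an r of 0.10 (permutation p = 0.719, adjusted 0.860) and a rho of 0.09 (permutation p = 0.750, adjusted 0.867).

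**Figure D5:**
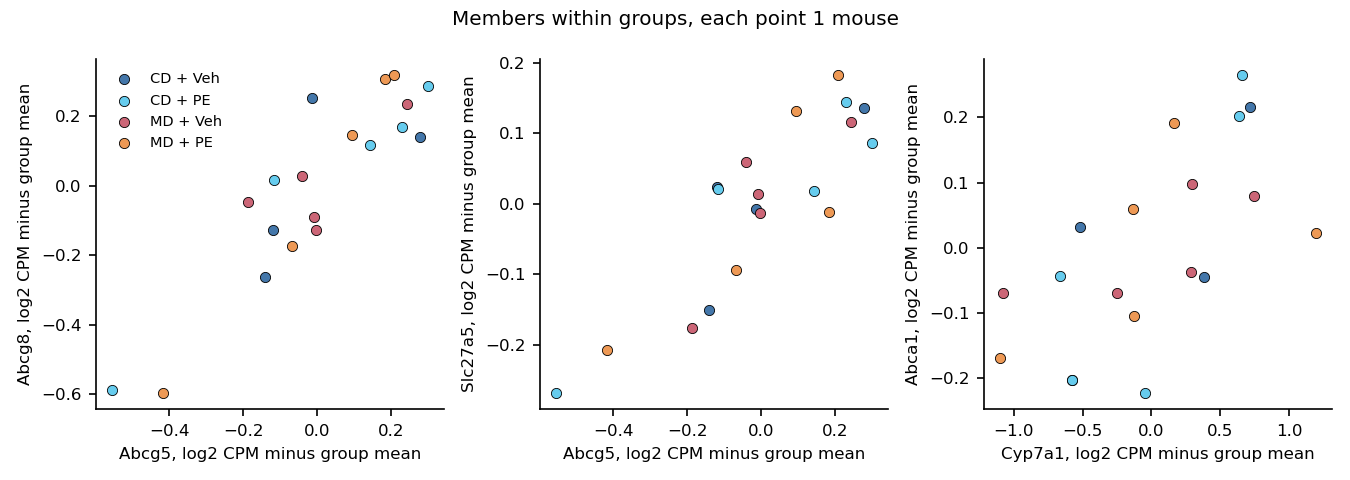
Log2 CPM minus the group mean for Abcg8 (vertical) against Abcg5 (horizontal), Slc27a5 against Abcg5, and Abca1 against Cyp7a1, each point 1 library colored by group. The lowest points of the first 2 panels are CD + PE replicate 2 and MD + PE replicate 4, and r is 0.90, 0.88 and 0.64.

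Among all genes tested, those most like Abcg5 across the 19 libraries were Abcg8 (r = 0.98), Adam11 (r = 0.96) and Cfd (r = 0.95). After group means were removed these were 0.90, 0.64 and 0.37, so that much of the likeness of the last lies in the group means. Those most like Cyp7a1 were Nol11 (r = 0.78) and C4bp (r = 0.74), and here removal of group means left 0.86 and 0.74. The libraries share depth and scaling, and these values describe them only.

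Of 11 other enzymes of bile acid synthesis tested, 4 rose and 1 fell in MD + Veh against CD + Veh, where 10.4% of all genes were called. With the clock score 3 of the 11 were called, in a fit that called 390 of 13597 genes for this comparison. The list had a median log2 fold change of 0.25 beside -0.004 over all genes. Acox2, the branched-chain acyl-CoA oxidase that shortens the sterol side chain, rose from 138 ± 16.3 to 231 ± 20.5 CPM (log2 fold change 0.74, adjusted p = 0.000123), and Hsd17b4, the next peroxisomal enzyme, from 365 ± 18 to 562 ± 72.2 CPM (0.62, adjusted p = 0.000191). Hsd3b7 and Scp2, which lie outside the naming rule and were added after their values were seen, rose by 0.49 and 0.40, but Hsd3b7 lost its call with the clock score (0.30, adjusted p = 0.277) and Scp2 fell under the minimum size in several alternatives. Cyp39a1, the 24-hydroxycholesterol 7-alpha-hydroxylase, fell from 40.1 ± 7.32 to 13.1 ± 4.32 CPM (-1.62, adjusted p = 0.000433), a call that was lost with the clock score (-0.93, adjusted p = 0.181). In MD + PE against CD + PE, Acox2 and Hsd17b4 rose again, by 0.44 and 0.56, where 4.61% of all genes were called. The list median was 0.04 there, beside -0.02 over all genes. With PE on CD, 1 of 11 was called, beside 2.92% of all genes. The list median was 0.23 there, beside 0.006 over all genes. At an unadjusted p below 0.05 in edgeR there were 6 of 11, beside 2377 of 13597 genes. With PE on MD none was called, and the list median was 0.02, beside -0.01 over all genes. The gene called on CD, Akr1c6 (0.47, adjusted p = 0.0156), was also outside the rule. With the library-number division as a covariate it became 0.06 (adjusted p = 0.889). On CD that division is the same as PE.

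Of 11 bile acid and bile lipid transporters tested, the diet raised 2 and lowered 1 under vehicle and under PE, where 10.4% and 4.61% of all genes were called, and these were the same 3 genes. The median log2 fold changes of the list were 0.10 and 0.13, beside -0.004 and -0.02 over all genes. Abcc3, which exports conjugates toward blood, rose from 105 ± 34.4 to 245 ± 46.7 CPM under vehicle (log2 fold change 1.22, adjusted p = 0.000374) and by 1.09 under PE (adjusted p = 0.000916). Abcb4, the phospholipid exporter of the canalicular membrane, rose by 0.78 and 0.49 (adjusted p = 0.000105 and 0.00605), and it was higher with PE on CD as well (0.43, adjusted p = 0.0350), although 4 of the alternatives and 5 of the libraries left out ended that last call. Slc10a1, the sodium-dependent uptake transporter NTCP, fell by 1.04 under vehicle (adjusted p = 0.000167) and by 0.89 under PE (adjusted p = 0.000855). The fall under vehicle was lost with the clock score (-0.71, adjusted p = 0.0794).

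Among 10 regulators of the pathway, 1 was called for the diet under vehicle, a share near the 10.4% over all genes. In the other comparisons none was called by edgeR or DESeq2. At an unadjusted p below 0.05 in edgeR, 2 differed for PE on CD, 0 for PE on MD, 4 for the diet under PE and 0 for the interaction. Over all 13597 genes these counts were 2377, 2132, 2954 and 1193. The called gene, Nr1h4, which encodes FXR, fell from 106 ± 11.5 CPM in CD + Veh to 73.5 ± 8.60 CPM in MD + Veh (log2 fold change -0.53, adjusted p = 0.00108), and with the clock score this was -0.50 (adjusted p = 0.075). Cyp7a1 and Cyp8b1, which FXR is known to repress, were not called in the same comparison. Their log2 fold changes were 0.37 (interval -0.51 to 1.24) and 0.27 (interval -0.10 to 0.64), in that order. The absence of a call therefore does not exclude a rise within these bounds. Whether the fall of Nr1h4 bears on their levels was not tested.

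Of 6 other LXR targets, 1 rose and 1 fell for the diet under vehicle and likewise under PE, where 10.4% and 4.61% of all genes were called, and 1 fell with PE on each diet, where 2.92% and 1.08% were called. Scd1, the stearoyl-CoA desaturase, was not called between the diets and fell with PE, from 24256 ± 5976 to 11616 ± 3118 CPM on CD (log2 fold change -1.06, adjusted p = 0.00526) and from 25508 ± 3576 to 10203 ± 1771 CPM on MD (-1.32, adjusted p = 0.00121), without overlap in either diet. On CD the call was lost with the library-number division (-0.93, adjusted p = 0.257), which on CD is the same as PE. Pltp, the phospholipid transfer protein, fell with the diet by 1.55 under vehicle (adjusted p = 0.00745) and by 1.93 under PE (adjusted p = 0.00241), and without CD + Veh replicate 4, which held 197 CPM while the rest of its group reached 72.9, the first was -0.91 (adjusted p = 0.0676). Lpl, the lipoprotein lipase, rose by 2.42 under vehicle (adjusted p = 0.000546), with 178 CPM in MD + Veh replicate 1, the library with the highest muscle and adipocyte markers, and by 1.91 without it (adjusted p = 0.000475). With the clock score the calls of Pltp and Lpl under vehicle were lost (adjusted p = 0.167 and 0.117). Mylip, outside the naming rule, rose by 0.70 in MD + PE against CD + PE (adjusted p = 0.0138).

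Of 8 genes for sterol uptake, storage and lysosomal release, the diet lowered 2 under vehicle and 1 under PE, beside 10.4% and 4.61% of all genes called. Soat2, the enzyme that esterifies cholesterol in hepatocytes, fell by 0.54 under vehicle (adjusted p = 0.00583) and by 0.41 under PE (adjusted p = 0.0366), and Npc1, the lysosomal cholesterol exporter, fell by 0.45 under vehicle (adjusted p = 0.0196). These calls were less firm than those of the ABCG transporters, since Soat2 under PE lost its call in 8 of the fits that left out 1 library, and Npc1 without CD + Veh replicate 4 (-0.33, adjusted p = 0.10) and without MD + Veh replicate 3 (-0.41, adjusted p = 0.0532). With the clock score, Soat2 and Npc1 under vehicle were at -0.42 and -0.01 (adjusted p = 0.267 and 0.985). Of the 4 electron donors of the P450 enzymes, only Cyb5a, which encodes cytochrome b5, was called. It was called for PE on CD and for the diet under vehicle, beside 2.92% and 10.4% of all genes. It stood at 539 ± 48.2 CPM in CD + Veh, 832 ± 135 in CD + PE (log2 fold change 0.63, adjusted p = 0.00716) and 836 ± 104 in MD + Veh (0.63, adjusted p = 0.00161). The median log2 fold change of the list was -0.12 in both comparisons. With the library-number division, which on CD is the same as PE, Cyb5a for PE on CD was 0.38 (adjusted p = 0.475).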

How the data were processed

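Poly(A) RNA of 19 livers was sequenced from stranded libraries. The authors trimmed reads with fastp (0.23.4, per the submitters' notes) and made the deposited table of estimated counts per gene with Salmon (1.10.3) against GRCm39, and the annotation release is not given in the sources used here. Libraries held 10398820 to 15456729 counts, which limits precision for counting error only.

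The estimated counts were rounded, filtered with filterByExpr (13597 of 55836 genes kept), TMM-scaled and tested with edgeR (4.0.16, R 4.3.3) in 1 quasi-likelihood fit of the 4 groups, with Benjamini-Hochberg adjustment over all genes tested. A gene was called at an adjusted p under 0.05 if its log2 fold change was also 0.38 or more in size. Log2 CPM used a prior count of 2. Ratios within a library were compared by exact two-sided permutation tests with scipy (1.17.1), whose smallest p is 0.0159 for 4 against 5 libraries and 0.00794 for 5 against 5. Scripts were tested on simulated data. Gene positions and upstream sequences came from GRCm39 with GENCODE annotation, and lengths are those of canonical transcripts.

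The members and lists were chosen with earlier results of these data known. From each related list, at most 3 called genes were named, those with the largest change, and for Abcg5 and Cyp7a1 the 3 genes with the highest correlation over libraries, 1 of which is not reported here. Alternatives were RLE scaling, DESeq2 (1.42.0), other filters, calls without the minimum size, a robust estimate of dispersion, fits of the 2 groups alone, a block for replicate number, covariates for a division of library numbers after 45 and for a clock score, thinning, and leaving out each library. The division after 45 separates libraries only within MD + Veh and on CD is the same as PE. Fits with it therefore cannot tell the numbering from PE, and PE effects on CD lose precision. The SE of Abcg1 for PE on CD rose from 0.264 to 0.417. Leaving out 4 libraries with high marker levels was added after the data were seen. Nothing in the labels says that replicate numbers pair mice across groups, and the main fit did not pair them. Of 27 same-numbered pairs, 10 had a residual correlation above 0.1, with a median of 0.0679. Pairs with different numbers were not measured, so these values cannot settle whether the numbers mark a pairing. P-values measure the spread between mice that shared a cage within each group. No pair of libraries within a group agreed within counting noise.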

Additional observations from a re-analysis of the deposited data

Results flagged for a closer look

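In 52 sets of values of 1 measure in 1 group, 5 held a library far from the others by Dixon's criterion, which chance alone meets in about 1 of 20 sets. Abcg1 was at 13.2 CPM in CD + PE replicate 2, against 4.12 to 6.36 CPM in the other CD + PE libraries. The log2 ratio of Abcg5 to Abcg8 was -0.34 in CD + PE replicate 5, against -0.19 to -0.14 in the others of its group. The log2 ratio of Cyp7a1 to Cyp7b1 stood apart in 3 groups. It was -1.49 in CD + Veh replicate 3 (others 0.08 to 0.39), -2.04 in CD + PE replicate 4 (others -0.22 to 0.27) and 1.35 in MD + PE replicate 2 (others -1.44 to -0.75), where bile duct and intestinal markers were highest.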

How the results depend on the processing

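Every member was counted well above the filter, and the spread of Cyp7a1 and Cyp7b1 between mice limits their comparisons most. Abcg5, Abcg8 and Abca1 kept each diet call and direction under every alternative run, and Abcg1 kept both of its diet calls except under vehicle with the clock score. The causes of the changes listed here were not tested. With the replicate number as a block, members called were 0, 0, 3, 4 and 0 in the order PE on CD, PE on MD, diet under vehicle, diet under PE and interaction, so that the block changed no call of a member. It turned the ratio of Cyp7a1 to Cyp8b1 for PE on CD to 0.072, and raised the LXR targets called for the diet under PE from 2 to 4.

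Members called for PE on MD became 1 with no minimum fold change and after thinning, and for PE on CD 1 with the clock score. The following log2 fold changes, none of them called, turned in sign. In a fit of the groups compared alone, Abcg8 for PE on MD was 0.0032. With the library-number division, PE on CD gave 0.28 for Abcg1, -0.68 for Cyp7a1 and -0.74 for Cyp7b1, PE on MD -0.32 for Cyp7b1 and -0.065 for Baat, and the diet under vehicle -0.21 for Cyp7b1 and -0.010 for Slc27a5. With the clock score, PE on CD gave 0.14 for Abcg5, 0.12 for Abcg8, -0.29 for Cyp7a1 and 0.090 for Slc27a5, and Cyp7a1 was -0.096 for the diet under vehicle and -0.038 under PE. Without the 4 libraries of high marker levels, PE on CD gave 0.044 for Abcg5, -0.065 for Cyp7a1 and 0.031 for Slc27a5, and PE on MD 0.046 for Abcg8.

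Leaving out single libraries gave these ranges where a sign turned. For PE on CD, Abcg1 ran from -0.53 to 0.00068, Abcg5 from -0.14 to 0.041, Cyp7a1 from -0.067 to 0.39, Cyp7b1 from -0.11 to 0.52 and Slc27a5 from -0.071 to 0.028. For PE on MD, Abcg1 ran from -0.051 to 0.15, Abcg8 from -0.094 to 0.12, Baat from -0.013 to 0.10 and Cyp7b1 from -0.021 to 0.50. For the diet under vehicle, Cyp27a1 ran from -0.082 to 0.0054, Cyp7b1 from -0.058 to 0.54 and Slc27a5 from -0.013 to 0.083, and for the diet under PE Cyp7a1 ran from -0.38 to 0.25. The ratio differences ran, for PE on CD, from -0.0013 to 0.13 for Abcg5 to Abcg8, -0.59 to 0.28 for Cyp7a1 to Cyp7b1 and -0.39 to 0.13 for Cyp7a1 to Cyp8b1, for PE on MD -0.0061 to 0.38 for Cyp7a1 to Cyp8b1, and for the diet under vehicle -0.37 to 0.32 and -0.14 to 0.37 for the Cyp7a1 ratios in that order.

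Counts of the related lists moved as follows. LXR targets called for PE on MD were 2 with RLE scaling, DESeq2, the stricter filter, the groups compared alone and the clock score. Bile acid synthesis enzymes called for the interaction were 1 with DESeq2. Transporters called for PE on CD were 0 with no filter, the groups compared alone, the library-number division and the clock score, and the division also left 0 synthesis enzymes, 0 LXR targets and 0 electron donors. Sterol uptake genes called for the diet under PE were 0 with no filter and with the clock score. With the clock score the diet under vehicle called 3 synthesis enzymes, 0 regulators, 0 LXR targets, 0 sterol uptake genes and 2 electron donors, and the diet under PE 2 electron donors. With single libraries left out, members called for PE on MD were 0 to 1, transporters for PE on CD 0 to 1, synthesis enzymes and LXR targets for PE on CD 1 to 2, LXR targets for PE on MD and for the diet under vehicle 1 to 2, electron donors and regulators for the diet under PE 0 to 1, and sterol uptake genes 0 to 3 for the diet under PE and 1 to 3 under vehicle.

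Over all genes, calls for PE on MD were 147, against 299 with DESeq2, 73 with the groups compared alone, 33 with the division, 54 without the 4 libraries and 56 to 243 with single libraries left out. For PE on CD they were 397, against 37 with the division and at the fewest 215, without CD + Veh replicate 4. For the diet they were 1410 under vehicle against 390 with the clock score, and 627 under PE against 964 with no minimum fold change and 987 without CD + PE replicate 2. For the interaction there was 1, against 81 with DESeq2, 41 with the block, 54 with the division, 0 with the clock score, after thinning and without the 4 libraries, and 0 to 3 with single libraries left out.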
